A study of Homo sapiens with 4 samples.

Results

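The 41 genes described here act in homologous recombination, in the Fanconi pathway of crosslink repair and in the checkpoint that controls both. They were taken by name from a list of such genes, in 8 roles. The rule uses no measured value, but the list was drawn up with earlier results of these data known. For each gene the brightest probe of the array was used, and a gene was kept when its signal was well above background on at least 1 of the 4 arrays. All 41 were kept, of 17353 genes kept by the same rule and 43311 gene names on the array. The signals of 40 of the 41 were well above background on all 4 arrays, and BRCA2 was not well above background on either MDS-L/CDA array.

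MDS-L is a human cell line derived from a myelodysplastic syndrome, and MDS-L/CDA is the same line transduced with CDA, the cytidine deaminase that inactivates cytidine analogues. Azacitidine (AZA) is such an analogue, which enters RNA and DNA and depletes DNA methyltransferases. Each line was grown with IL-3, at 20 ng/mL per the labels, and exposed for 72 h to 1 μM AZA or to its vehicle, 0.1% DMSO. RNA of each of the 4 conditions was hybridized to 1 one-colour array, so that the study has no replicates, no test of any difference could be made, and every ratio below compares 2 RNA samples. The study's methods give another IL-3 concentration. The labels disagree on the dose of AZA, with 1 mM in some places, and on which agent was given for the MDS-L array with AZA and the MDS-L/CDA array with vehicle. The titles, source names and descriptions agree on the agent for each array and were followed.

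Homologous recombination repairs a DNA double-strand break by copying the intact sister chromatid. The broken ends are trimmed, BRCA1, PALB2 and BRCA2 prepare the single strand for invasion of the sister chromatid, and joined molecules are later dissolved or cut. The Fanconi core complex attaches ubiquitin to FANCD2 and FANCI at crosslinked DNA, and ATR and CHEK1 hold the cell cycle while a stalled fork is repaired. Many of these genes are transcribed mostly in dividing cells.

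Between 32.6% and 36.5% of the 58185 probes were well above background on an array, none was saturated, and the 75th percentile of signal was 52.5 and 52.9 on the MDS-L arrays and 40.8 and 37.3 on the MDS-L/CDA arrays with vehicle and AZA. Levels are given as scaled signal, the multiple of the 75th percentile signal of the same array, and compare 1 probe between arrays, never 2 genes. Spots of one probe on one array had an SD of 0.23 on the log2 scale, pooled over the 4 arrays, which gives 0.33 for a ratio of 2 single spots. By array, with vehicle and AZA, the SD was 0.18 and 0.21 for MDS-L and 0.24 and 0.29 for MDS-L/CDA. These SDs cover the spread on the array alone. The CDA probe fell short of well above background on all 4 arrays, so the arrays held no check of the transduced gene. Of the myeloid progenitor markers, 8 of 9 were kept and MPO was dim on all 4 arrays. CD34 had scaled signals of 11.4 and 8.30 in MDS-L cells and 11.4 and 15.4 in MDS-L/CDA cells with vehicle and AZA. None of 3 epithelial and stromal markers was kept.

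In MDS-L cells, all 41 genes had a lower signal with AZA than with vehicle. The ratios of AZA to vehicle lay between 0.411 for CHEK1 and 0.943 for SLX4, with a median of 0.689, against 0.917 over all genes. In all, 58.9% of the 17172 genes measured in this pair had a ratio below 1. CHEK1, RAD54B and RAD54L, 3 of the 41, were lower by a factor of 2 or more, where 6.03% of all genes were, and none was higher by that factor, where 6.73% were. RAD54L did not reach the factor with quantile normalization, with a log2 ratio of -0.88, or with the percentile over probes well above background on all 4 arrays, with -0.96, which leaves 2 of the 41. A factor of 1.5 was reached by 17 of the 41 downwards, where 18.1% of all genes did, and by none upwards, where 14.1% did. With bulk RNA, fewer cells that express a gene and less of its RNA per cell cannot be told apart.

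Genes outside the group moved too. The 35 proliferation genes all had ratios below 1, with a median of 0.691, close to that of the repair genes. Their ratios ran from 0.447 to 0.980. TOP2A, the topoisomerase of replicating chromosomes, had a ratio of 0.598, and MCM2, a subunit of the replicative helicase, 0.639. Others hardly moved, such as CCNB1 with 0.934, CDC20 with 0.948 and CCNB2 with 0.980. The part of proliferation in the levels of the repair genes was not tested.

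**Figure D1:**
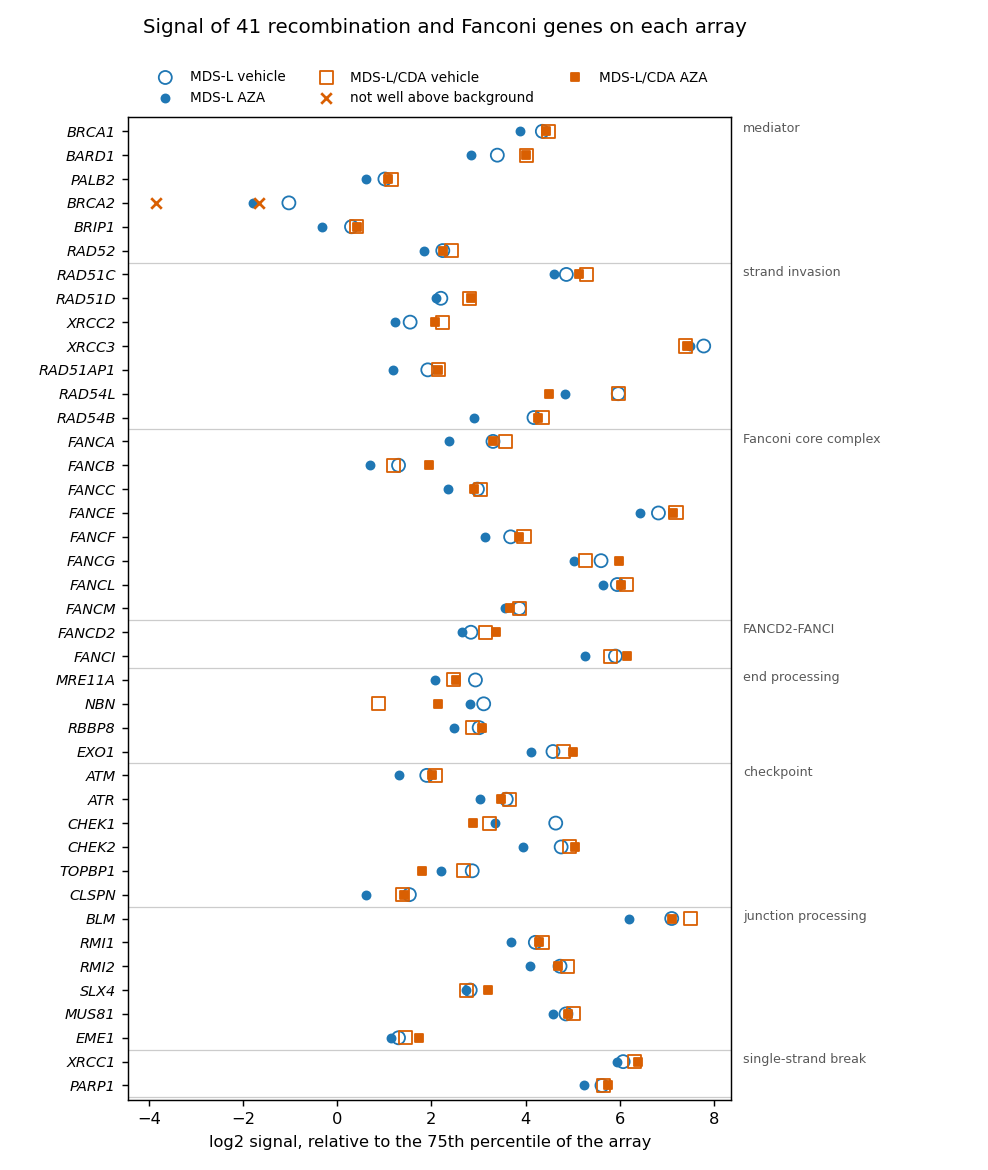
Signal of each of the 41 genes on each of the 4 arrays, as log2 of the multiple of the 75th percentile signal of the array. Open symbols are vehicle, filled symbols AZA, circles MDS-L and squares MDS-L/CDA, with 1 array each. For every gene the filled circle lies to the left of the open circle, and crosses mark the 2 MDS-L/CDA arrays on which BRCA2 was not well above background.

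The mediators, which act at the break before strand invasion, had a median ratio of 0.700 in MDS-L cells, and all 6 were below 1. BRCA1, which directs a break towards recombination, had scaled signals of 20.5 with vehicle and 14.8 with AZA in MDS-L cells, and of 22.3 and 21.5 in MDS-L/CDA cells. The MDS-L array with AZA was the low one of the 4. Its probe (hg19 chr17:41196422-41196481) was printed on 10 spots of each array, of which 8 to 10 were used. The spots ran from 17.6 to 22.4 with vehicle and from 12.9 to 16.2 with AZA in MDS-L cells, with no overlap, and the log2 ratio was -0.47 ± 0.062 (SE over spots). BARD1, the partner of BRCA1 in its ubiquitin ligase, went from 10.6 to 7.17 in MDS-L cells and stood at 16.2 and 16.1 in MDS-L/CDA cells.

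BRCA2, a mediator that acts on the single strand, was the gene whose signals were not well above background on all arrays. Its scaled signals were 0.491 with vehicle and 0.290 with AZA in MDS-L cells, a ratio of 0.590. In MDS-L/CDA cells they were 0.0693 and 0.315, neither well above background, so that no ratio is given there (probe at hg19 chr13:32972996-32973055). With vehicle, the MDS-L/CDA signal of BRCA2 was at least 1.80-fold lower than in MDS-L cells. PALB2, which joins BRCA1 to BRCA2, had a ratio of 0.757, and the helicase BRIP1 one of 0.650.

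The genes of strand invasion help the single strand to pair with the sister chromatid. In MDS-L cells 7 of 7 were below 1, with a median ratio of 0.795. RAD54L, a motor protein that acts during strand invasion, stood at 62.6 with vehicle and 28.4 with AZA in MDS-L cells and at 62.4 and 22.5 in MDS-L/CDA cells. Both AZA arrays were low and both vehicle arrays were level, with ratios of 0.453 and 0.361 (probe at hg19 chr1:46744038-46744097). No other repair gene was lower by a factor of 2 in both lines, and under the 2 scalings named above RAD54L was so in MDS-L/CDA cells alone.

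RAD54B, its relative, had scaled signals of 18.1, 7.47, 20.6 and 19.3 in the order MDS-L vehicle, MDS-L AZA, MDS-L/CDA vehicle and MDS-L/CDA AZA. Only MDS-L with AZA was low by this probe, with a ratio of 0.412. The second probe of RAD54B gave a log2 ratio of 0.09 for MDS-L and of -0.71 for MDS-L/CDA, against -1.28 and -0.09 by the first. The 2 probes thus place the decrease in different lines, but the second was dim. It had scaled signals of 0.539, 0.573, 0.682 and 0.418 in the same order. The lowest signals well above background on those arrays were 0.190, 0.190, 0.272 and 0.296. RAD51D, of the complex that also holds XRCC2, hardly moved, with 4.60 and 4.30 in MDS-L cells and 7.06 and 7.20 in MDS-L/CDA cells. Its second probe gave log2 ratios of -0.59 and -1.03. RAD51AP1, which promotes strand invasion, went from 3.80 to 2.29 in MDS-L cells and from 4.45 to 4.43 in MDS-L/CDA cells.

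All 8 genes of the Fanconi core complex were below 1 in MDS-L cells, with a median ratio of 0.683. FANCA, a scaffold of the complex, had scaled signals of 9.91 and 5.16 in MDS-L cells and 11.9 and 9.90 in MDS-L/CDA cells. Its 10 spots ran from 7.07 to 12.1 with vehicle and from 4.80 to 5.94 with AZA in MDS-L cells, without overlap, and its ratio there was 0.521 (hg19 chr16:89804013-89804072). FANCA has 3 probes, and in MDS-L cells their log2 ratios were -0.94, -0.64 and -1.07.

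FANCB and FANCG were the core genes that moved in opposite directions in the 2 lines. FANCB, the X-linked member that works with FANCL, the ubiquitin ligase, had scaled signals of 2.47 and 1.61 in MDS-L cells and of 2.30 and 3.85 in MDS-L/CDA cells. FANCG, which binds FANCA, had 48.6 and 32.8 in MDS-L cells and 38.6 and 63.6 in MDS-L/CDA cells. The highest array for each was MDS-L/CDA with AZA and the lowest MDS-L with AZA. The ratios of AZA to vehicle were 0.655 and 1.67 for FANCB (hg19 chrX:14862037-14862096) and 0.675 and 1.65 for FANCG (hg19 chr9:35073935-35073994), each measured by 1 probe.

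FANCI, which the core complex modifies together with FANCD2, showed the same order. Its scaled signals were 60.1 and 38.6 in MDS-L cells and 55.5 and 71.4 in MDS-L/CDA cells, with ratios of 0.643 and 1.29 (hg19 chr15:89858528-89858587). FANCD2 stood at 7.16 and 6.29 in MDS-L cells and 8.85 and 10.3 in MDS-L/CDA cells by its brightest probe. The small decrease in MDS-L cells, a log2 ratio of -0.19, was -1.80 by the second probe, the widest gap between probes of any of the 41 genes in this pair. In MDS-L/CDA cells its first probe gave a log2 ratio of 0.22 and the second -0.14, so the probes of FANCD2 differed in size in MDS-L cells and in direction in MDS-L/CDA cells.

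The 4 genes of end processing cut back the broken end to a single strand. All 4 were below 1 in MDS-L cells, where the median ratio was 0.706, while all 4 were above 1 in MDS-L/CDA cells, where it was 1.15 and 51.7% of all genes were above 1. With no scaling between arrays MRE11A fell below 1 there, with a log2 ratio of -0.068. MRE11A, the nuclease of the complex that first binds the break, had 7.65 and 4.22 in MDS-L cells and 5.52 and 5.76 in MDS-L/CDA cells. NBN, its regulatory partner, had 8.64 and 7.09 in MDS-L cells and 1.84 and 4.42 in MDS-L/CDA cells.

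NBN was thus lowest in MDS-L/CDA cells with vehicle, at 0.213 of the MDS-L level, and higher there with AZA by a factor of 2.40. It was the only one of 40 measured genes higher by a factor of 2 in MDS-L/CDA cells, where 2.53% of all genes were. This rests on 1 probe with 1 spot on each array, and with normexp background correction the log2 ratio of 1.27 became 0.79, so that no gene reached the factor. EXO1, a nuclease that extends the single strand, had 24.0 and 17.3 in MDS-L cells and 28.0 and 32.1 in MDS-L/CDA cells. Its 10 spots did not overlap between vehicle and AZA in MDS-L cells, with a log2 ratio of -0.47 ± 0.038 (SE over spots), and overlapped in MDS-L/CDA cells, with 0.20 ± 0.040.

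The checkpoint genes had the lowest median ratio of the 8 roles in MDS-L cells, 0.600. A factor of 1.5 downwards was reached by 5 of the 6, where 18.1% of all genes did. ATM was among them by its brightest probe alone, with a ratio of 0.665. CHEK1, the kinase that ATR activates at stalled forks, had a scaled signal of 24.9 in MDS-L cells with vehicle and 10.3 with AZA. In MDS-L/CDA cells it had 9.43 and 7.43. MDS-L with vehicle was the high array and the other 3 lay together, so the low level was present in MDS-L/CDA cells without AZA, at 0.378 of that of MDS-L (hg19 chr11:125525158-125525217).

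CLSPN, the adaptor through which ATR reaches CHEK1, had 2.89 and 1.53 in MDS-L cells and 2.63 and 2.69 in MDS-L/CDA cells, low only in MDS-L with AZA. TOPBP1, which activates ATR, had 7.30 and 4.63 in MDS-L cells and 6.44 and 3.48 in MDS-L/CDA cells, with ratios of 0.635 and 0.541. TOPBP1 and RAD54L were the only 2 of 40 genes with a lower ratio in MDS-L/CDA than in MDS-L cells.

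ATM and ATR are the kinases that start the response to breaks and to stalled forks. ATM went from 3.74 to 2.49 in MDS-L cells and from 4.27 to 4.01 in MDS-L/CDA cells by its brightest probe (hg19 chr11:108099942-108100001). Its other probes gave log2 ratios of 0.25 and 0.13 in MDS-L cells, against -0.59. Both were dim, with scaled signals of 0.497 and 0.240 with vehicle there. ATR went from 12.0 to 8.19 and from 12.7 to 11.2, a log2 ratio of -0.56 in MDS-L cells, which was 0.01 by its second probe. A decrease of ATM and ATR was thus not shared by their probes. CHEK2, the kinase downstream of ATM, had 27.0 and 15.3 in MDS-L cells and 30.5 and 33.0 in MDS-L/CDA cells, and its 4 probes were all below 1 in MDS-L cells.

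Among the 6 genes of junction processing, which untangle or cut the joined molecules, the median ratio in MDS-L cells was 0.763. BLM, the helicase that dissolves them, had 138 and 72.9 in MDS-L cells and 181 and 139 in MDS-L/CDA cells. Vehicle was higher than AZA in both lines, with ratios of 0.530 and 0.764 (hg19 chr15:91358495-91358554). RMI1, a cofactor of BLM, had a ratio of 0.700 in MDS-L cells, where its spots did not overlap.

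SLX4, a scaffold for nucleases, and EME1, the partner of MUS81, were among the least changed in MDS-L cells. SLX4 had 7.09 and 6.68 there and 6.71 and 9.24 in MDS-L/CDA cells. EME1 had 2.47 and 2.20, and 2.73 and 3.33. For both genes the MDS-L/CDA array with AZA was the highest, and the MDS-L values differed by less than the spread of a ratio between spots.

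PARP1 and XRCC1 act mainly on single-strand breaks. PARP1, which marks the break with poly(ADP-ribose), had 49.3 and 37.9 in MDS-L cells and 50.5 and 53.6 in MDS-L/CDA cells, a log2 ratio of -0.38 in MDS-L cells that was -1.13 by its second probe. XRCC1, the scaffold of the repair complex, had 67.3 and 61.5, and 79.3 and 83.5. Its ratios of 0.914 and 1.05 were within the spread between spots.

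**Figure D2:**
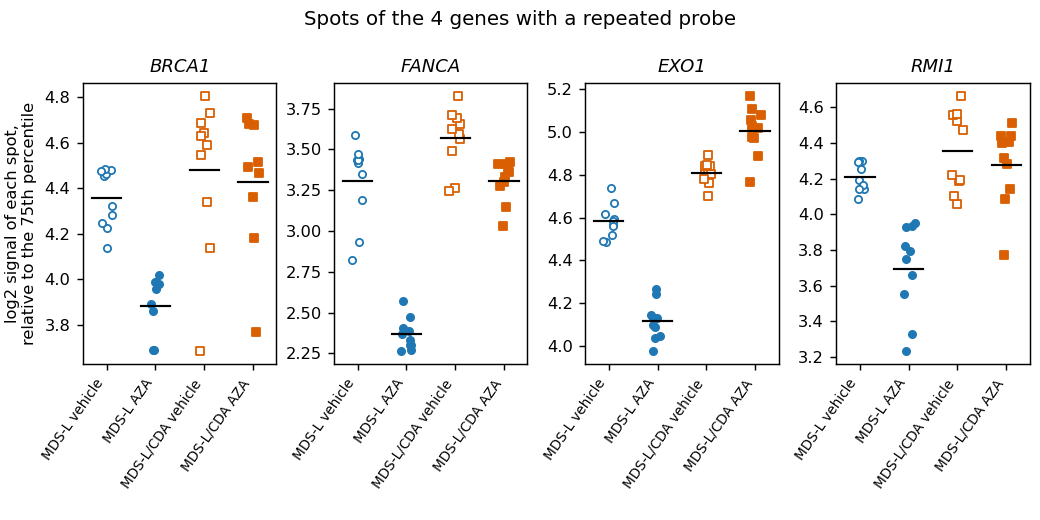
Scaled log2 signal of every used spot of the probes for BRCA1, FANCA, EXO1 and RMI1, the only genes of the group with a repeated probe, on each array. Horizontal lines are means over 8 to 10 spots of 1 array, which are not replicates of the treatment. In MDS-L cells the AZA spots lie below all vehicle spots for each gene, and in MDS-L/CDA cells the spots overlap.

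The count of 41 of 41 rests on 1 probe a gene. Of the 41 genes, 28 had a single probe and 13 had several, and over all 57 probes measured in MDS-L cells 52 were below 1. Other probes above 1 belonged to RAD52, RAD54B, ATM and ATR, the first of these with a log2 ratio of 0.54 against -0.40 by its brightest probe. Those of RAD52, RAD54B and ATM were dim, with scaled signals of 0.261, 0.539, and 0.497 and 0.240 in MDS-L cells with vehicle. That of ATR stood at 1.66. Measured probes of one gene differed from the brightest by a median of 0.62 on the log2 scale. It also rests on the scaling, since RAD51D, SLX4 and XRCC1 were above 1 in MDS-L cells with quantile normalization, and these genes and EME1 with the percentile taken over probes well above background on all 4 arrays.

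**Figure D3:**
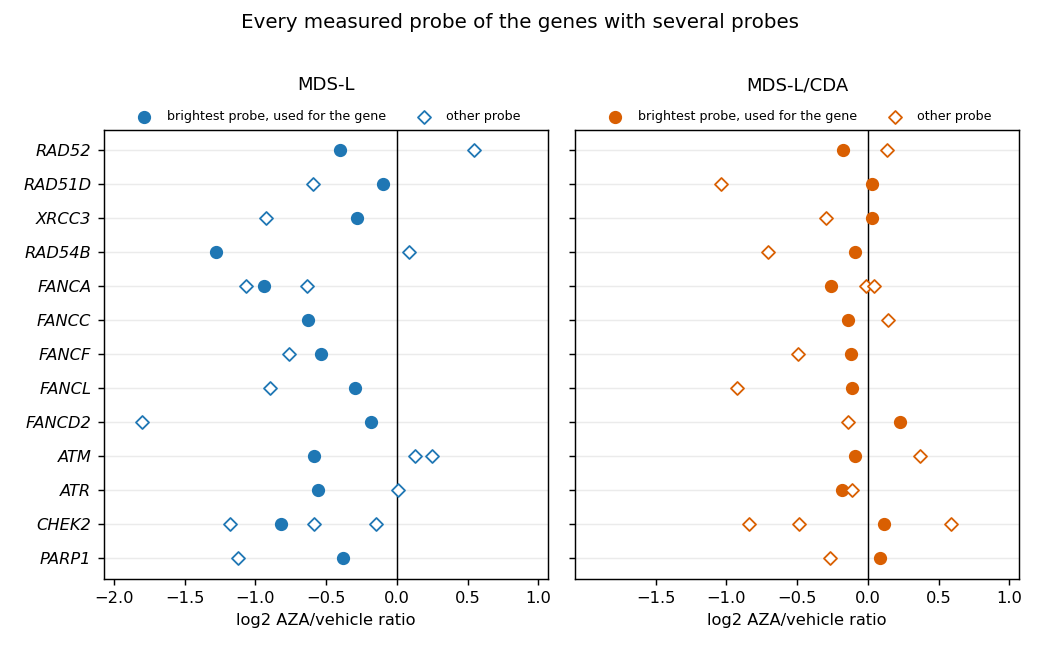
Log2 ratio of AZA to vehicle for every measured probe of the 13 genes with several probes, in MDS-L cells on the left and MDS-L/CDA cells on the right. Filled circles are the brightest probe, used for the gene, and open diamonds the others. In MDS-L cells the filled circles are all below 0 and 5 diamonds lie above 0.

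In MDS-L/CDA cells, the levels of most repair genes with AZA lay near those with vehicle. The median ratio was 0.961, against 1.01 over all genes, and 24 of 40 measured genes were below 1, where 48.3% of the 15393 genes measured were. RAD54L alone was lower by a factor of 2, where 3.07% of all genes were, and NBN alone was higher. At a factor of 1.5, RAD54L and TOPBP1 were lower, where 9.6% of all genes were, and NBN, FANCB and FANCG were higher, where 9.32% were. At either factor the shares of the repair genes were near or below those of all genes. The 35 proliferation genes had a median ratio of 1.11 in this line, and 10 of them were below 1.

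**Figure D4:**
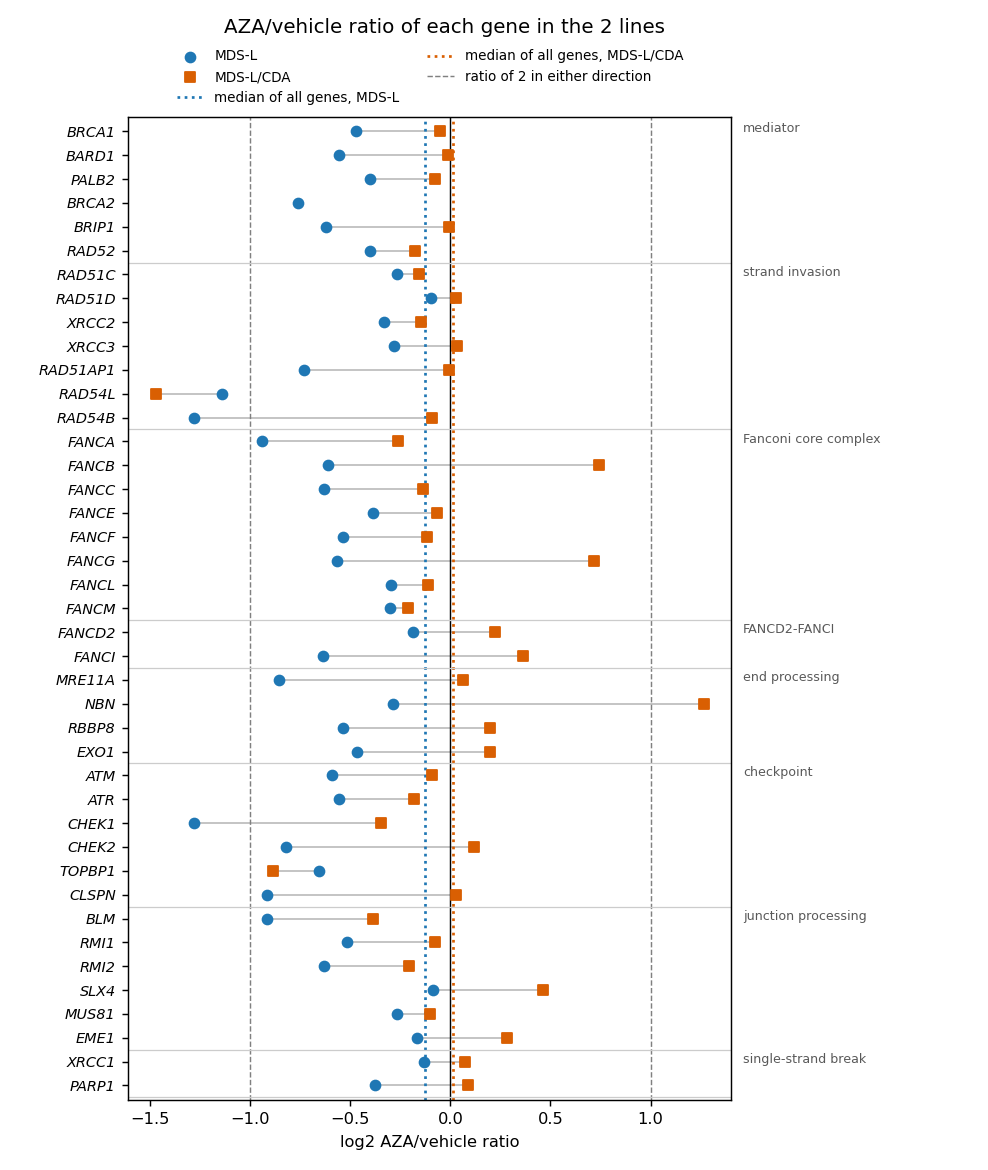
Log2 ratio of AZA to vehicle for each gene, by role, in MDS-L cells (circles) and MDS-L/CDA cells (squares), with 1 array a condition. Dotted lines are the medians of all genes and dashed lines a ratio of 2 in either direction. All circles lie left of 0, and the circle lies to the right of the square for RAD54L and TOPBP1 alone.

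The 2 lines were set side by side gene by gene. The log2 ratio was lower in MDS-L than in MDS-L/CDA cells for 38 of 40 genes, or 95%, with a median difference of -0.46. Over all 15212 genes measured in both pairs, 61.4% were lower in MDS-L cells and the median difference was -0.14. The 4 arrays are 4 single samples, so this difference was not tested. Of the 40 genes, 24 were below 1 in both lines and 16 were below 1 in MDS-L and above 1 in MDS-L/CDA cells. The latter is 40% against 26.2% of all genes, an excess that follows from every repair gene being below 1 in MDS-L cells. Over all genes below 1 in MDS-L cells, 5520 were below 1 and 3983 above 1 in MDS-L/CDA cells, a similar split. Of these 16 genes with opposite directions, only FANCB, FANCG and FANCI had both log2 ratios beyond 0.33, the pooled spread for a ratio of 2 single spots. That spread pools arrays with unlike spot SDs, which were larger on the MDS-L/CDA arrays. FANCI, with 0.36 in MDS-L/CDA cells, and NBN, with -0.29 in MDS-L cells, lay near it. Which genes pass thus depends on the pooling. EXO1, a mean over 10 spots an array, has a smaller spot error. Its log2 ratios of -0.47 ± 0.038 and 0.20 ± 0.040 (SE over spots) both exceeded it, though its spots overlapped in MDS-L/CDA cells. That error leaves out the scaling between arrays. Before scaling, the EXO1 signals in MDS-L/CDA cells were close, at 1143 with vehicle and 1197 with AZA.

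**Figure D5:**
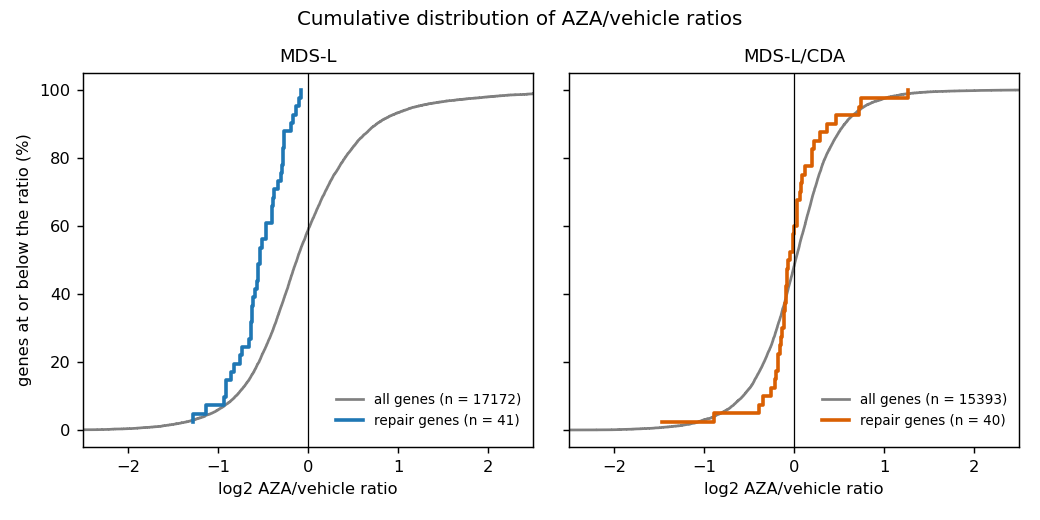
Cumulative share of genes, in percent, at or below each log2 ratio of AZA to vehicle, for the repair genes (coloured) and all measured genes (grey), for each line. In MDS-L cells the curve of the 41 repair genes reaches 100% before 0, where that of all genes is at 58.9%, and in MDS-L/CDA cells the curves cross.

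Without AZA, most repair genes differed between the lines by less than a factor of 1.5. The median ratio of MDS-L/CDA to MDS-L cells was 1.11 (all genes 1.04), and 28 of 41 were above 1, where 56.3% of all genes were. NBN and CHEK1 were lower by a factor of 2 in MDS-L/CDA cells, where 2.64% of all genes were, and none was higher by that factor, where 1.97% were. At a factor of 1.5, NBN, CHEK1 and BRCA2 were lower, where 7.81% of all genes were, and BARD1, RAD51D and XRCC2 were higher, where 7.96% were. With AZA the median ratio was 1.503 (all genes 1.12), 35 of 41 were above 1, where 60.6% of all genes were, and 21 were higher in MDS-L/CDA cells by a factor of 1.5, where 20.3% of all genes were. BARD1, RAD54B, FANCB and CHEK2 were higher by a factor of 2, where 5.43% were. CHEK1, TOPBP1, RAD54L, XRCC3 and NBN were the 5 that were lower, none by a factor of 2, where 5.23% of all genes were, and NBN alone by a factor of 1.5, where 11.1% were. These 4 comparisons share arrays and are not independent. With no scaling between arrays the median log2 ratio under AZA fell from 0.59 to 0.081. Leaving out the scaling shifts all ratios measured on both arrays alike, so the median of all genes falls with it.

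The rest of the pathway showed both patterns. Of 40 further recombination and Fanconi genes 37 were kept. In MDS-L cells 32 of the 37 were below 1, where 58.9% of all genes were, with a median ratio of 0.766. FIGNL1, an ATPase of recombination, had 1.93 and 0.538 in MDS-L cells and 1.85 and 1.71 in MDS-L/CDA cells, and its ratio of 0.279 was the lowest of the list. PSMC3IP, a cofactor of strand invasion, had a ratio of 0.302 and CENPX, a histone-fold protein of the Fanconi pathway, one of 0.489. RAD50, the third protein of the MRE11A and NBN complex, had scaled signals of 4.97 and 5.46 in MDS-L cells and 5.11 and 5.52 in MDS-L/CDA cells with vehicle and AZA. SFR1 alone of the list was higher by a factor of 2 in MDS-L/CDA cells, with a ratio of 2.02, where 2.53% of all genes were. In MDS-L cells its ratio was 0.745.

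Of 17 other checkpoint genes 16 were below 1 in MDS-L cells, where 58.9% of all genes were, with a median ratio of 0.742. CDC25A, the phosphatase that CHEK1 marks for destruction, had a ratio of 0.426. Of 18 genes of end joining and base excision 14 were below 1, with a median of 0.734, and PRKDC, the kinase of end joining, had a ratio of 0.450. Of 7 genes regulated by p53 5 were below 1, with a median of 0.794. The exceptions were CDKN1A, with a ratio of at least 1.60, and XPC, with 1.44. In MDS-L/CDA cells the medians of these 3 lists were 0.985, 1.02 and 1.27. WEE1 and TP53BP1 were lower there, with ratios of 0.410 and 0.436, and CDKN1A was higher, with a ratio of at least 2.20. Its vehicle signal was not well above background in either line.

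The promoters of CHEK1, RAD54L, FANCA and CLSPN, which had 4 of the 5 lowest ratios in MDS-L cells, and of FANCG, which moved in opposite directions, are printed for comparison. Each is the 250 bases before the gene start, 5′ to 3′ on the strand of the gene, from RefSeq (GRCh38.p14). They lie at chr11:125625979-125626228 (plus strand), chr1:46247438-46247687 (plus), chr16:89816648-89816897 (minus), chr1:35769979-35770228 (minus) and chr9:35079943-35080192 (minus). Capitals mark letters of the E2F site, the CCAAT box, the SP1 box and the CHR element, on either strand.
CHEK1: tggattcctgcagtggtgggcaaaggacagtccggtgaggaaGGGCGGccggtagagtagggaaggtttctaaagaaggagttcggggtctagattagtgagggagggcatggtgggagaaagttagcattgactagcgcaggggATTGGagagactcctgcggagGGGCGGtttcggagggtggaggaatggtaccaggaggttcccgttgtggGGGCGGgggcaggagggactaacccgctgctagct
RAD54L: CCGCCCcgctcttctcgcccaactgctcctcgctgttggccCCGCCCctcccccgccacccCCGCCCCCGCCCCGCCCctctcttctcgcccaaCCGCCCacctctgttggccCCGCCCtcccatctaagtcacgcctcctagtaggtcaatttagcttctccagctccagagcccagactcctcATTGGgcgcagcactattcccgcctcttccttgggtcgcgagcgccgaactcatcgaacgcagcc
FANCA: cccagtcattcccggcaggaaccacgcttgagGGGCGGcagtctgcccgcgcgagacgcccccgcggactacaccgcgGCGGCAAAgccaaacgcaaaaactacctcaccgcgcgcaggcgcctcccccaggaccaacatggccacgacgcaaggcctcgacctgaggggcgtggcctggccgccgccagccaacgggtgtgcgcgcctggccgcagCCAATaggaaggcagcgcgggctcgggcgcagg
CLSPN: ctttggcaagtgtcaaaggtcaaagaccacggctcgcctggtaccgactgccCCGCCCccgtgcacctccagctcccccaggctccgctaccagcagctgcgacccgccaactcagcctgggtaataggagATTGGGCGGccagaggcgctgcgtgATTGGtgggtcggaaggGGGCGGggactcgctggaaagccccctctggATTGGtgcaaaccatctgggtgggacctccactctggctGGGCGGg
FANCG: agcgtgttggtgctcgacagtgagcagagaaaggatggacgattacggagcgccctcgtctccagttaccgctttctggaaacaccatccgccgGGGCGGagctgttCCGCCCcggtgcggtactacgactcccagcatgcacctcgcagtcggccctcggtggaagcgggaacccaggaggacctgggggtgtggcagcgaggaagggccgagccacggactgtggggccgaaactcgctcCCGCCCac

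The letters searched, on both strands, were TTTGGCGC, TTTCCCGC, TTTGCCGC and TTTCGCGC for E2F, a family that drives genes of the cell cycle, TTTGAA for the CHR element, CCAAT for the CCAAT box and GGGCGG for the SP1 box. A window of 300 bases, 250 before and 50 after the start, was given for 37 of the 41 genes. E2F letters were in 7 of the 37, or 18.9%, against 3.33% of the windows of 27305 genes and 4.44% of those of 15843 protein-coding genes. The 7 were FANCA, FANCC, CLSPN, FANCD2, TOPBP1, EXO1 and XRCC2. When only the 250 bases before the start were searched, 2 of 37 held them, FANCA and FANCC, or 5.41% against 2.79% of all and 3.72% of protein-coding genes, so the higher share came from matches across or just after the start.

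The 37 windows were richer in G and C, with a median of 64.7%, against 58.3% of all and 62.7% of protein-coding genes. Their median number of CpG was 28, against 14 and 22. The part of base composition in the shares of letters was not tested. SP1 letters were in 28 of 37 windows, or 75.7%, against 44.6% of all windows and 58.5% of those of protein-coding genes. CCAAT letters were in 45.9%, against 35.7% of all and 36.4% of protein-coding genes. CHR letters were in 10.8%, against 15.4% and 12.1%. Matches of different motifs shared bases in 1 window, that of CLSPN. The 7 genes with E2F letters had a median of -0.63 for the log2 ratio in MDS-L cells, and the 30 without had -0.52, with overlapping ranges. The windows of CHEK1 and RAD54L held no E2F letters.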

How the data were processed

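The 4 arrays, Agilent one-colour and on 1 slide, each held the RNA of 1 condition, with MDS-L or MDS-L/CDA cells given vehicle or AZA. The deposited scanner files, made by the authors with Feature Extraction 10.7.1.1, hold spot intensity after background subtraction and no normalization between arrays. A deposited value table of intensity holds 51680 probes, whose columns once sorted lie within 0.039 log2 units of each other, the mark of quantile normalization. It was used as an alternative.

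Control spots and outlier spots were left out, which removed 16 probes entirely. Spots of one probe were averaged as log2 signals, from which the array's own 75th percentile was taken away. A probe was well above background when at least 50% of its spots were so marked. Where only 1 array of a pair was well above background, the dim one was raised, if lower, to the lowest signal so marked on its array. Such a ratio was set to 1 when it pointed the other way. Where both were dim no ratio was given. Positions are those of hg19 in the files, and whether a probe lies in an exon or UTR was not annotated here. Promoters came from RefSeq, GRCh38.p14. Their letters were first counted in the 250 bases before the start and then in the whole window of 300 bases, and both counts are given.

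The members, lists and promoter letters were chosen with earlier results of these data known. The genes named were those with the 5 lowest and 5 highest ratios of AZA to vehicle in each line, those past a factor of 2 there, those not well above background on an array, and BRCA1, BRCA2, FANCD2, FANCI, ATM, ATR and PARP1. The rule gave 21 genes, and other names were chosen after their values were seen. Some genes of the other lists are not reported here by name. With 1 array per condition no p-value is given, and the number of arrays limits the precision. Alternatives were other scalings, normexp background correction (limma 3.58.1, R 4.3.3), the value table, other probes and another ratio. The analysis used Python 3.11.15, numpy 2.4.6, pandas 2.3.3 and matplotlib 3.10.9.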

Additional observations from a re-analysis of the deposited data

Results flagged for a closer look

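The ratio of AZA to vehicle was below 1 in MDS-L cells and above 1 in MDS-L/CDA cells for 16 of 40 genes, or 40%. Of all genes 26.2% were so. Over all genes below 1 in MDS-L cells, 5520 were below 1 and 3983 above 1 in MDS-L/CDA cells, a split similar to that of the repair genes. No test of the difference between the lines was made, because each condition had 1 array. The log2 ratio in MDS-L minus that in MDS-L/CDA cells was -1.55 for NBN, -1.35 for FANCB, -1.29 for FANCG and -1.0004 for FANCI. It was -0.95 for CLSPN, -0.94 for CHEK2, -0.92 for MRE11A, -0.73 for RBBP8, -0.66 for EXO1 and -0.55 for SLX4. It was -0.46 for PARP1, -0.45 for EME1, -0.41 for FANCD2, -0.31 for XRCC3, -0.20 for XRCC1 and -0.13 for RAD51D. The spread between spots gives 0.33 for a ratio of 2 single spots, and less for EXO1, which has 10 spots an array.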

How the results depend on the processing

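No paired analysis was possible because each condition had 1 array and the labels give no replicate numbers. In MDS-L cells the median log2 ratio of the repair genes minus that of all genes was -0.41, and between -0.541 and -0.355 under every alternative run. The same quantity for MDS-L/CDA over MDS-L was 0.42 with AZA and 0.083 with vehicle, and with no filter on dim genes it turned to -0.048 and -0.38. With vehicle it also turned to -0.040 with normexp. For the difference between the lines it was -0.31, and -0.12 by the second brightest probe of 13 genes. Median scaling moved the median of all genes in MDS-L cells from -0.13 to -0.667, and with it the median of the repair genes to -1.08. Under it 82.0% of all genes were below 1 in MDS-L cells. The count of repair genes lower by a factor of 2 with AZA there went from 3 to 25 with that shift. The median of MDS-L/CDA over MDS-L with vehicle went to -0.38 and the median difference between the lines to -0.94. For the alternatives, shares of all genes past a factor of 2 were not computed, so counts at that factor have no background here. With no scaling the median of MDS-L/CDA over MDS-L was -0.22 with vehicle and 0.081 with AZA, and 2 genes of MDS-L/CDA cells were lower by a factor of 2 with AZA than with vehicle. The median with AZA was 0.34 with the percentile over probes well above background on all arrays and 0.32 with normexp, under which no gene was higher by a factor of 2 in MDS-L/CDA cells (0). By the second brightest probe 9 of 13 genes were below 1 in each line, a count with no share of all genes beside it here. By that probe 0 were higher by a factor of 2 in MDS-L/CDA cells (NBN has 1 probe and is not among them), and RAD54B in MDS-L cells turned to 0.089. With the median of the probes 2 genes were lower by a factor of 2 with AZA in MDS-L/CDA cells. At a factor of 1.5, 17 were lower with AZA in MDS-L cells, where 18.1% of all genes were. In MDS-L/CDA cells 2 were lower and 3 higher, where 9.6% and 9.32% of all genes were. Searching 250 in place of 300 promoter bases, an alternative listed only after the data had been seen, took the genes with E2F letters from 7 to 2. Weak signals, such as that of BRCA2, were limited by background.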
